A study of Homo sapiens with 14 samples.

Results

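The genes examined here make, degrade and sense polyamines: OAZ1 and OAZ2 (antizymes), AZIN1 (antizyme inhibitor), ODC1 (ornithine decarboxylase), AMD1 (S-adenosylmethionine decarboxylase), SRM (spermidine synthase), SMS (spermine synthase) and SAT1 (spermidine/spermine acetyltransferase). Members were chosen by gene name, and each gene was described by its transcript of highest mean RPKM over the 4 profiles. Of these 8 genes, 7 had a row, among 6714 named genes, and they held 37 of the 20512 transcripts. AMD1, with its upstream frame, was not analysed here because no row matched one of its transcripts.

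The study probed RNA of K562, a human chronic myelogenous leukemia line with erythroid features, with icSHAPE and icLASER. icSHAPE uses NAI-N3, which acylates flexible 2'-hydroxyls, at 100 mM for 5 min. icLASER uses NAz-N3, which attacks the C8 position of solvent-exposed purines after 10 min of UV light and was added from a 1 M stock. "In vivo" means reagent given to living cells, and "in vitro" means reagent given to RNA folded again after extraction. Of the 14 libraries, 3 were icSHAPE in vivo, 2 icSHAPE in vitro, 3 DMSO controls for icSHAPE, 2 icLASER in vivo, 2 icLASER in vitro and 2 controls for icLASER without UV. The submitters pooled them into 1 profile for each reagent and condition, so no value below has a replicate, an error or a test, and every difference compares 2 pooled profiles. Poly(A)-selected RNA of 1 cell line was used, and the labels name no treatment other than the probing.

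Each nucleotide carries a score from 0 to 1 that compares the reagent with its control. In the members, 5% to 5.25% of scored nucleotides stood at 1.00 in every profile, so a score ranks a nucleotide within its own transcript and the means of different transcripts are not on one scale. Between 12256 and 16648 transcripts were scored per profile. Of 10 erythroid markers 9 were scored, with HBG1, a fetal globin gene, at 1225 to 2652 RPKM. Of 7 lymphoid or epithelial markers 1 was scored, the epithelial gene EPCAM, at 20.3 to 27.1 RPKM.

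Polyamines are small cations made from ornithine by ODC1 and extended by SRM and SMS with groups that AMD1 provides, and SAT1 marks them for export or breakdown. Antizyme binds ODC1 monomers and sends them to the proteasome, and AZIN1 binds antizyme in turn. Antizyme is made only when ribosomes shift into the +1 frame at the UGA that ends its first frame. Polyamines stimulate this shift, and in the mammalian antizymes an RNA pseudoknot lies just downstream of the UGA.

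The frameshift sites are shown because the scores below are read on them, with the stop codon of the first frame in capitals. The sequences are those of the GRCh38 genome, at chr19:2271428-2271457 on the plus strand for OAZ1 and at chr15:64691501-64691530 on the minus strand for OAZ2. The second line of each pair is the letters of the annotated coding transcript (ENST00000602676 for OAZ1 and ENST00000326005 for OAZ2), whose exons skip 1 base there so that the annotated frame runs on.
OAZ1 frameshift site: ccucgguggugcuccUGAugccccucaccc
OAZ1 coding model without the skipped base: ccucgguggugcuccgaugccccucaccc
OAZ2 frameshift site: ccucuguggugcuccUGAugccccucaccc
OAZ2 coding model without the skipped base: ccucuguggugcuccgaugccccucaccc
The 2 genes shared 29 of these 30 nt and 38 of the 60 nt that follow the UGA (63.3%). The skipped base is the U of UGA, at chr19:2271443 in OAZ1 and chr15:64691515 in OAZ2.

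A search of the 80 nt after the UGA for 2 crossing helices of Watson-Crick pairs found the same arrangement in both genes. Helix 1 had 11 pairs in arms of 12 nt and helix 2 had 6 pairs. The arms are shown because paired and unpaired letters are compared below, and this match of letters is a description, not a measured fold.
OAZ1 helix 1 5' arm: cccucacccacc
OAZ1 helix 1 3' arm: ggugggcgaggg
OAZ1 helix 2 5' arm: gauccc
OAZ1 helix 2 3' arm: gggauc
OAZ1 loop 1 (helix 1 to helix 2): ccugaa
OAZ1 loop 2 (helix 1 3' arm to helix 2 3' arm): aauagucaga
OAZ2 helix 1 5' arm: ccccucacccac
OAZ2 helix 1 3' arm: gugggcgagggg
OAZ2 helix 2 5' arm: gauccc
OAZ2 helix 2 3' arm: gggauc
In OAZ1 the helix 1 arms lie at chr19:2271449-2271460 and chr19:2271474-2271485, and the helix 2 arms at chr19:2271467-2271472 and chr19:2271496-2271501.

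OAZ1 was the most abundant member, and its RPKM was 117 in the icSHAPE in vitro profile, 152 in icSHAPE in vivo, 114 in icLASER in vitro and 129 in icLASER in vivo. These levels lay above 90.1% to 94.6% of the transcripts in each profile. OAZ2 was scored only in the icLASER profiles used here, at 5.34 RPKM in vitro and 5.47 in vivo, just above the limit of 5 RPKM for a row. AZIN1 was also low, at 7.01 and 6.76 RPKM in icSHAPE in vitro and in vivo and 8.90 and 7.29 in icLASER. ODC1 stood at 48.2 and 55.4 RPKM in icSHAPE in vitro and in vivo and at 60.8 and 46.9 in icLASER. AZIN1 was thus far below OAZ1 in all 4 profiles, and above OAZ2 in both icLASER profiles.

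SRM, which makes spermidine, was at 14.8 and 18.4 RPKM in icSHAPE in vitro and in vivo but at 61.1 and 61.6 in icLASER, so its level followed the reagent and not the condition. SMS, which makes spermine, was nearly level, at 28.1 and 30.1 RPKM in icSHAPE in vitro and in vivo and 28.4 and 31.9 in icLASER. SAT1 was at 12.8 and 9.86 RPKM in icSHAPE in vitro and in vivo and 24.6 in icLASER in vivo, and it was not scored in the icLASER in vitro profile used here.

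**Figure D1:**
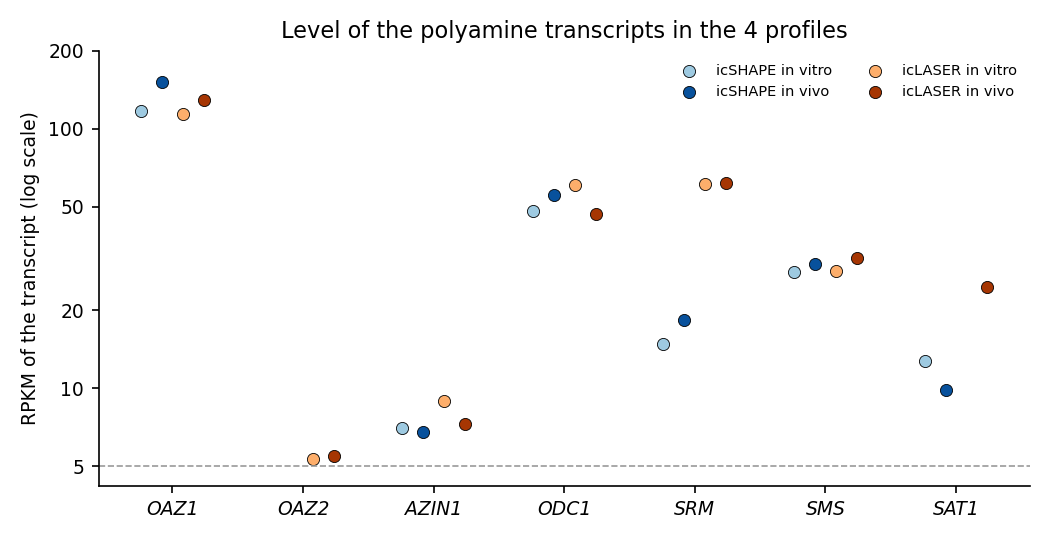
RPKM of the transcript that stands for each gene (y axis, log scale) in the 4 pooled profiles, 1 point per profile, with the limit of 5 RPKM dashed. OAZ1 lies at 114 to 152 in every profile, OAZ2 at 5.34 and 5.47, and SRM splits into 14.8 and 18.4 for icSHAPE and 61.1 and 61.6 for icLASER.

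The OAZ1 transcript of highest RPKM was ENST00000592727, a model of 726 nt annotated as a retained intron. It holds every base of the frameshift site and the whole pseudoknot, as do 6 of the other 10 OAZ1 models. These 7 models overlap in sequence, so they can share reads and are not replicates of each other.

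The frameshift window of OAZ1 (UCCUGA with 12 nt on each side) scored low with icSHAPE. Its mean was 0.0703 in vitro and 0.0651 in vivo. The difference of −0.00523 was smaller than the spread of 0.0502 (SD) of the 673 overlapping windows of 30 nt in the same transcript. With icLASER the mean was 0.144 in vitro and 0.0782 in vivo. That difference of −0.0654 was lower than all but 19.8% of the windows, and within their SD of 0.112. Over the 7 models with the whole site the icSHAPE difference of this window ran from −0.00523 to 0.0595 (median 0.0373) and the icLASER difference from −0.157 to 0.0101 (median −0.0513). The most abundant model thus gave the lowest icSHAPE difference of the 7.

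Among the 6 nt of UCCUGA, the G of the stop codon carried most of the signal. With icSHAPE this G scored 0.306 in vitro and 0.388 in vivo. With icLASER it stood at 1.00 in vitro and 0.704 in vivo. The U before it scored 0.0150 and 0.0350 with icSHAPE and 0 in both icLASER profiles. The A after it scored 0 in vitro and 0.0350 in vivo with icSHAPE, and 0.156 and 0.0410 with icLASER. In all 7 models with the whole site the G scored 1.00 with icLASER in vitro, against 0.637 to 1.00 in vivo. With icSHAPE it ranged from 0 to 0.306 in vitro and from 0.298 to 0.562 in vivo over the same models.

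A high icLASER score at this G was not particular to OAZ1. At the G of UCCUGA elsewhere (2302 occurrences in 1 transcript of each other gene) the mean in vitro was 0.433 and the upper quartile 0.867, and 77.8% of the occurrences scored below OAZ1. In vivo the mean elsewhere was 0.398 and 71.0% of 2382 occurrences scored below the 0.704 of OAZ1. With icSHAPE in vivo the mean elsewhere was 0.291, and 70.3% of 2101 occurrences scored below OAZ1.

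The 60 nt after the UGA scored higher than the frameshift window with both reagents. The icSHAPE mean was 0.253 in vitro and 0.226 in vivo. The icLASER mean was 0.328 in vitro and 0.148 in vivo, which is 0.18 lower. That difference was below all but 1.08% of the 649 overlapping windows of this length in the transcript, whose SD was 0.102. Neighbouring windows share most of their nucleotides, also with the 60 nt themselves, so this share does not count independent windows. The size of the difference depended on the summary. It was −0.0916 over the first 40 nt, which end before loop 2, and −0.085 with medians in place of means. In the coding transcript ENST00000602676 the same 60 nt differed by −0.184, below all but 1.59% of the 628 overlapping windows inside the coding region. Among 106158 consecutive windows in 1 transcript of each other gene, 3.26% had a lower icLASER difference than ENST00000592727.

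Counted by nucleotide, 39 of the 60 were lower in vivo with icLASER and 11 higher. Of these, 15 fell by at least 0.3 and 0 rose by as much, where 8.15% of all scored nucleotides fell by that much and 8.33% rose. The starting levels were unlike, since the icLASER in vitro mean was 0.328 over the 60 nt and 0.152 over all scored nucleotides. Only a score of at least 0.3 can fall by that much. With icSHAPE 21 nt were higher in vivo and 22 lower, and 1 rose and 3 fell by at least 0.3, against 10.3% and 7.75% of all scored nucleotides. In this model the icLASER signal over the pseudoknot was thus lower in cells, while the icSHAPE difference of −0.0266 was smaller than the SD of its windows, 0.0370.

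The letters placed in helix 1 scored low with icSHAPE, and those of its 5' arm with both reagents. Its 5' arm had an icSHAPE mean of 0.00183 in vitro and 0.00967 in vivo, and an icLASER mean of 0.000917 and 0.00775. Its 3' arm had an icSHAPE mean of 0.0282 in vitro and 0.0772 in vivo, and an icLASER mean of 0.237 and 0.144. The higher icLASER mean of the 3' arm lay at its ends, where the first G scored 0.688 in vitro and 0.318 in vivo and the next to last G scored 1.00 and 0.772.

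Loop 2, which links the helix 1 3' arm to the helix 2 3' arm, had the highest mean of the elements in ENST00000592727 in all 4 profiles. With icLASER in vivo loop 1 was above loop 2 in 4 of the 7 models with the whole site, and in both coding models that skip a base it was above loop 2 in vivo with either reagent. The icSHAPE mean of loop 2 in ENST00000592727 was 0.724 in vitro and 0.569 in vivo, and its icLASER mean was 0.746 in vitro and 0.303 in vivo. With icSHAPE its first 6 nt all scored 1.00 in vitro, and 3 of them still did so in vivo. With icLASER, 8 of its 10 nt scored at least 0.5 in vitro and 2 did so in vivo, and 7 fell by at least 0.3. Its first 2 nt, both A, went from 1.00 and 1.00 to 0.203 and 0.192, while the first G of the loop scored 1.00 in both icLASER profiles.

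Loop 1 had an icSHAPE mean of 0.396 in vitro and 0.405 in vivo, and an icLASER mean of 0.490 and 0.272. Helix 2 did not score low along its whole length. Its 5' arm had an icSHAPE mean of 0.599 in vitro and 0.508 in vivo, and its first 2 nt, GA, scored 1.00 in both. Its 3' arm had an icSHAPE mean of 0.107 in vitro and 0.138 in vivo, and the icLASER mean there was 0.337 and 0.101. The arms of helix 2 therefore differed from each other with icSHAPE, whereas both arms of helix 1 were low.

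**Figure D2:**
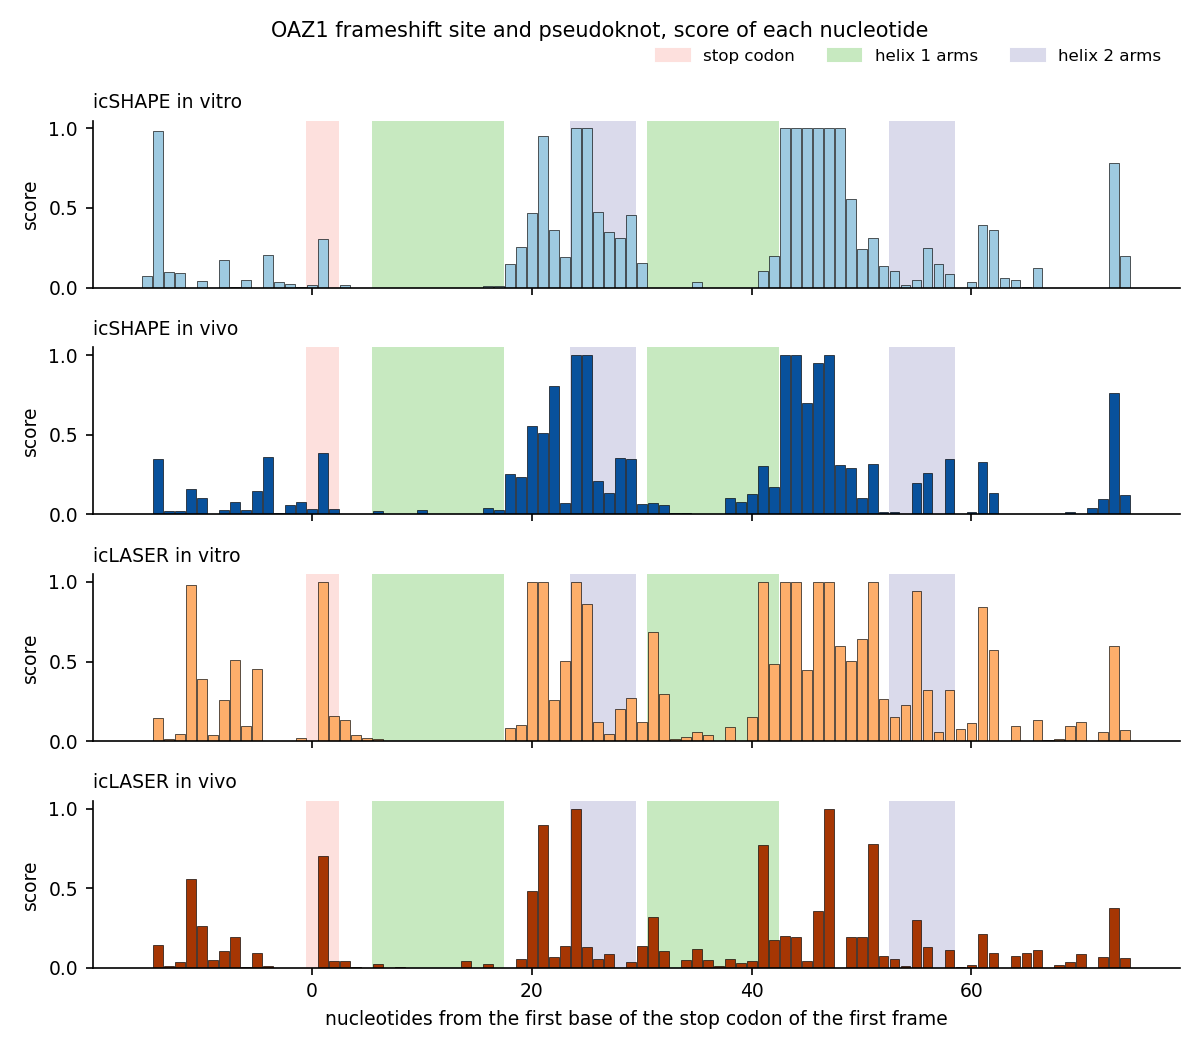
Score (y axis, 0 to 1) of each OAZ1 nucleotide of ENST00000592727 by its distance from the first base of the UGA (x axis), with 1 panel per pooled profile and shading for the stop codon and the helix arms. The helix 1 arms are near 0 in icSHAPE, loop 2 reaches 1.00 in both icSHAPE profiles, and icLASER bars over loop 2 drop from a mean of 0.746 in vitro to 0.303 in vivo.

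The icLASER difference over the 60 nt was larger at A than at G. The 16 A of the 60 nt had an icLASER mean of 0.467 in vitro and 0.122 in vivo, and the 17 G had 0.482 and 0.337. Over the whole of ENST00000592727 the A mean was 0.181 in vitro and 0.156 in vivo and the G mean was 0.353 and 0.355. Over all genes the A mean was 0.140 and 0.135, and the G mean 0.288 and 0.255. The 8 U went from 0.296 to 0.0776, and the 19 C from 0.0879 to 0.0316.

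The lower icLASER signal was present in each of the 7 models with the whole site. Their icLASER difference over the 60 nt ran from −0.212 to −0.0593, with a median of −0.113. The difference of the A alone ran from −0.376 to −0.156 and that of the G alone from −0.18 to −0.00888, and A was lower by more than G in each model. The icSHAPE difference over the 60 nt was below 0 only in ENST00000592727, at −0.0266, and the other 6 models were higher in vivo, by 0.0422 to 0.141. The icSHAPE in vitro level of loop 2 ran from 0.234 to 0.724 over the models, so its size depended on the model while its place above helix 1 did not.

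**Figure D3:**
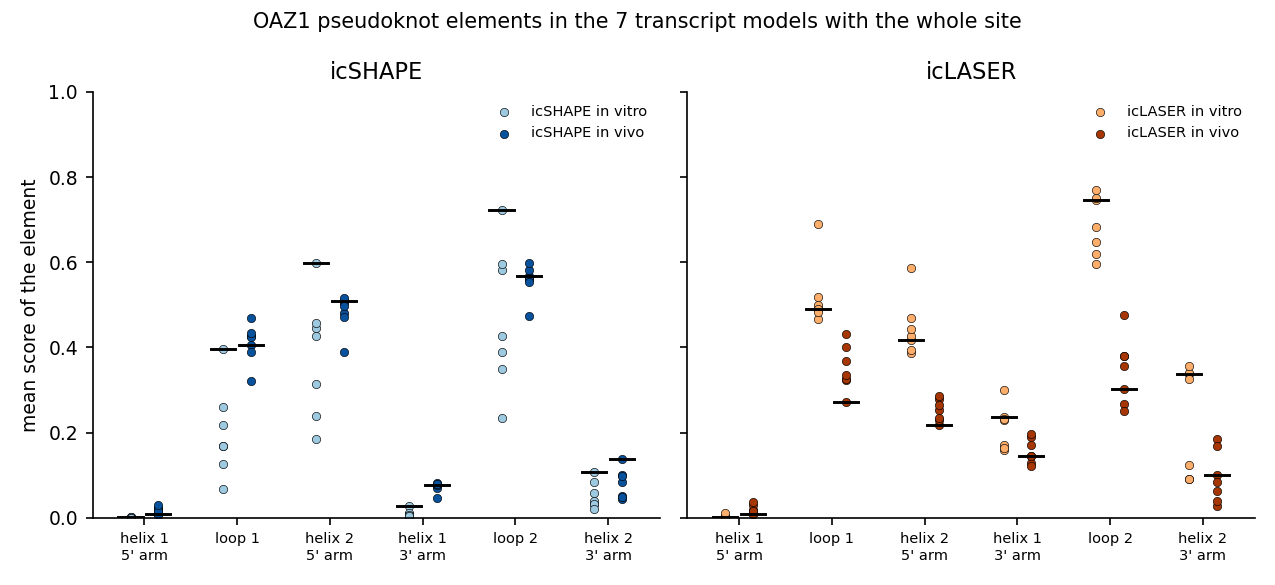
Mean score (y axis) of the 6 pseudoknot elements of OAZ1 (x axis) in the 7 transcript models that hold the whole site, with a point per model and a black bar for ENST00000592727. The models can share reads. In icLASER the loop 2 points lie at 0.595 to 0.770 in vitro and at 0.250 to 0.477 in vivo, and the helix 1 5' arm is at or below 0.0382 in every profile.

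The annotated coding transcript of OAZ1 gave another picture at the frameshift itself. In ENST00000602676, which lacks the U of UGA, the icSHAPE mean of the window was 0.0388 in vitro and 0.144 in vivo. The G beside the missing base scored 1.00 in all 4 profiles. The A after it scored 0 with icSHAPE in vitro and 0.650 in vivo. Of the 15 nt before the gap, 0 were above 0 with icSHAPE in vitro. A real transcript holds that base, so reads that cross it could match this model only with a gap, and the part of this in the scores was not tested. The second coding model, ENST00000582888, also skips the base, and the icSHAPE mean of its window was 0.0619 in vitro and 0.149 in vivo.

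**Figure D4:**
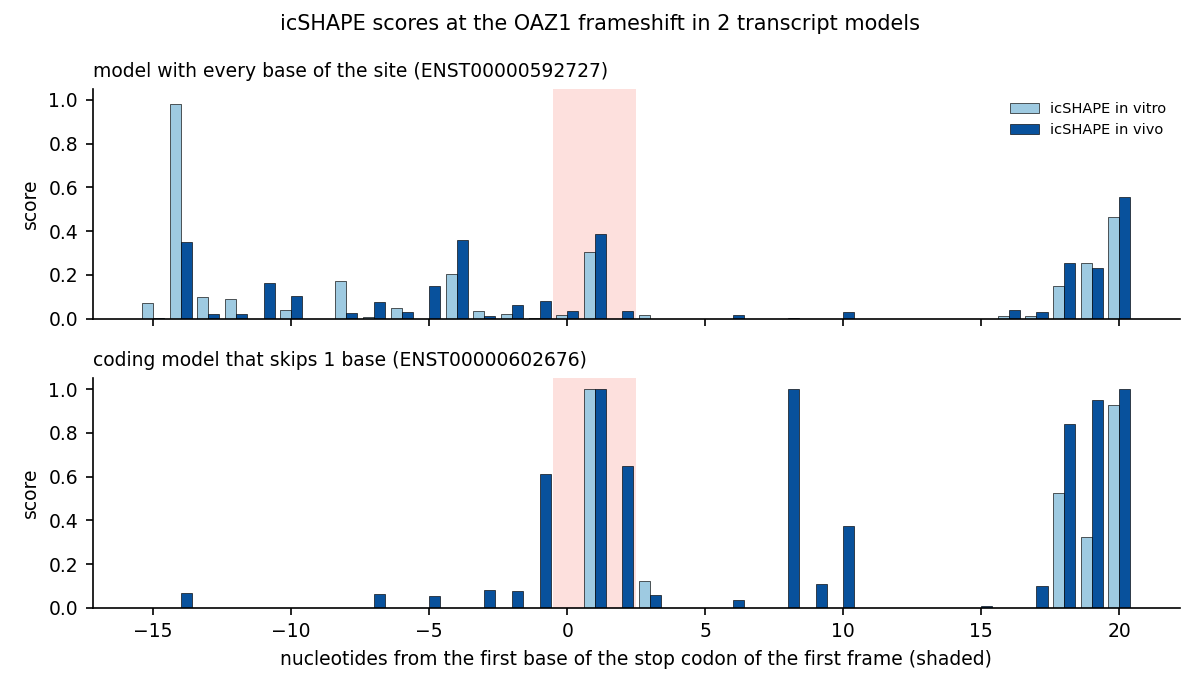
icSHAPE score (y axis) by distance from the first base of the UGA (x axis, stop codon shaded) in the OAZ1 model with every base (top) and in the coding model that skips the U (bottom), in vitro and in vivo. The G of the stop codon stands at 0.306 and 0.388 in the first and at 1.00 in both conditions in the second.

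Split after the UGA, the 2 parts of the coding region of ENST00000602676 differed in icLASER. The G and A of the UGA, which open the second frame in this model, were counted with the first part. From the start codon to this A (206 nt) the icLASER mean was 0.215 in vitro and 0.136 in vivo. In the 481 nt from there to the final stop it was 0.179 and 0.173. These 481 nt begin with the 60 nt after the UGA, which differed by −0.184 in this model. The mean of the second part thus joins that lower stretch with the rest, which was not averaged apart. With icSHAPE the first part had 0.190 and 0.185 and the second 0.188 and 0.204.

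OAZ2 offered little at this depth. Its scores were 0 or 1.00 at 73.3% of nucleotides in vitro and 68.3% in vivo, beside 55.5% and 59.9% over all transcripts. Only 15 nt of its frameshift window were scored in both icLASER profiles. Its icLASER mean over the 60 nt was 0.180 in vitro and 0.120 in vivo. Over the 50 of these nt that both profiles scored, the difference was −0.0965, within the SD of 0.124 of its windows. Loop 2, which has 6 nt in OAZ2, stood at 0.333 and 0.167, the helix 2 5' arm at 0.5 and 0.167, and the helix 1 5' arm scored 0 at all 12 nt in vitro and at the 4 nt scored in vivo. No nucleotide at the stop codon of OAZ2 was scored in both profiles, so the G seen in OAZ1 could not be compared.

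The regions of each mRNA were then compared between conditions, on the coding transcript with start and stop codon and a length equal to the reference. SRM had none, and its transcript was placed by matching its scores to another SRM transcript. The 5' UTR mean was higher in vivo with icSHAPE in 4 of 6 genes, where 65.9% of 1065 genes were higher and 32.9% lower. With icLASER it was lower in vivo in 4 of 5 genes, where 77.2% of 1262 genes were lower and 22.3% higher. These counts were close to the share among all genes.

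The antizyme OAZ1 has a 5' UTR of 79 nt. Its icSHAPE mean was 0.147 in vitro and 0.11 in vivo, and its icLASER mean was 0.350 and 0.289, so both reagents were lower in cells. OAZ2, with a 5' UTR of 233 nt, had an icLASER mean of 0.172 in vitro and 0.166 in vivo. The inhibitor AZIN1 has the longest 5' UTR of the members, 766 nt in ENST00000347770, whose icSHAPE mean was 0.136 in vitro and 0.213 in vivo. Its difference of 0.0769 exceeded 82.5% of genes. In ENST00000337198, where 1164 nt lie before the start codon, the icSHAPE mean went from 0.152 to 0.280 and the icLASER mean from 0.131 to 0.114. Scores of ENST00000337198 were sparse, with 70.3% of nucleotides at 0 in icSHAPE in vitro and 50.5% in vivo. Over all transcripts these shares were 62.5% and 46.7%. The part of sparseness in the difference was not tested.

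ODC1, the enzyme that antizyme targets, had a 5' UTR of 434 nt in ENST00000405333. Its icSHAPE mean was 0.106 in vitro and 0.131 in vivo, and its icLASER mean was 0.248 and 0.120. Over the 265 nt that both icLASER profiles scored the difference was −0.101. In the more abundant ENST00000234111, with 511 nt, the icSHAPE mean was 0.2 and 0.249 and the icLASER mean 0.310 and 0.255. The opposite direction of the reagents held in both ODC1 models.

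Of the synthases, SMS had the same directions as ODC1, and SRM had the opposite ones. The SMS 5' UTR (110 nt) had an icSHAPE mean of 0.163 in vitro and 0.237 in vivo and an icLASER mean of 0.313 and 0.270. The SRM 5' UTR (81 nt) had an icSHAPE mean of 0.232 in vitro and 0.155 in vivo, a difference lower than in all but 7.61% of genes, and an icLASER mean of 0.337 and 0.355. SAT1 (179 nt) had an icSHAPE mean of 0.230 in vitro and 0.247 in vivo.

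The median difference of the coding regions, 0.0169 with icSHAPE and −0.00198 with icLASER, was smaller than that of either UTR. With icSHAPE all 6 genes were higher in vivo (84.8% of 1299 genes were, and 15.2% were lower), by 0.00932 in OAZ1 to 0.0556 in AZIN1. With icLASER 2 of 5 were higher, ODC1 by 0.0341 and SMS by 0.0412, where 46.6% of 1593 genes were higher and 53.4% lower. The OAZ1 coding region differed by −0.0282 with icLASER. The direction of the icLASER difference depended on the model, since it was 0.0240 in ENST00000582888 of OAZ1 and −0.0379 in ENST00000404933 of SMS.

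The 3' UTRs had the largest median icLASER difference of the 3 regions. All 5 genes were higher in vivo, where 86.7% of 1447 genes were and 13.2% were lower, with a median of 0.151 for these 5 and 0.0530 for all genes. The OAZ1 3' UTR (382 nt) had an icLASER mean of 0.0901 in vitro and 0.258 in vivo, a difference above 94.3% of genes, and 308 of 352 nt were higher. In ENST00000582888 the OAZ1 3' UTR differed by 0.174. The ODC1 3' UTR (123 nt in this model) went from 0.0446 to 0.242, above 97.0% of genes, while in ENST00000234111 with 756 nt it went from 0.0458 to 0.112, above 59.1%. SRM went from 0.0630 to 0.214, above 92.2% of genes, and SMS from 0.0409 to 0.13, above 72.4%. OAZ2 went from 0.150 to 0.176. The icLASER scale is relative within a transcript, so a higher 3' UTR and a lower 5' UTR are not independent measurements.

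With icSHAPE the 3' UTR was higher in vivo in 5 of 6 genes (79.2% of 1170 genes were, and 20.1% were lower), with 0.104 in vitro and 0.113 in vivo for OAZ1. AZIN1 was the exception, at 0.111 and 0.0819 in ENST00000347770, but its means in ENST00000337198 were 0.103 and 0.104. In icLASER the AZIN1 3' UTR of ENST00000337198 was not higher in vivo, at 0.194 in vitro and 0.185 in vivo, lower than all but 9.05% of genes.

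Upstream AUG codons, which can hold back translation of the main frame, were counted in the same 5' UTRs. OAZ1 had 0, SRM had 0 in the 75 of 81 nt with a known sequence, SMS had 1 that overlaps the main start, SAT1 and OAZ2 had 2 each, and AZIN1 and ODC1 had 5 each. For some genes the count depended on the model. OAZ2 had 7 in ENST00000559753. In the part with a known sequence, AZIN1 had 3 in ENST00000337198 (590 of 1164 nt) and ODC1 had 1 in ENST00000234111 (334 of 511 nt). The counts of OAZ1, SMS and SAT1 were the same in their other coding model. Starts at other codons, by which the AZIN1 leader is known to be read, were not counted. In ODC1 the frame of 10 codons that begins 161 nt before the main start was present in both models. In ENST00000234111 its icSHAPE mean was 0.135 in vitro and 0.144 in vivo and its icLASER mean was 0.197 and 0.2, whereas the whole 5' UTR was lower in vivo with icLASER. The 5 upstream frames of AZIN1 in ENST00000347770 had icSHAPE means of 0.0556 to 0.125 in vitro and 0.167 to 0.297 in vivo. Some of these frames overlap and share nucleotides, so their means are not separate readings. The whole 5' UTR of this model was also higher in vivo, at 0.136 and 0.213. Its RPKM was only 5.3 in icSHAPE in vitro and 5.69 in vivo.

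SAT1 has a cassette exon of 110 nt (chrX:23784294-23784403) that the nonsense-mediated decay model ENST00000489394 holds and the coding model skips, and polyamines are known to favour its skipping. Its icSHAPE mean was 0.0914 in vitro and 0.188 in vivo, and the 50 nt on each side had 0.109 and 0.167. Its icLASER mean in vivo was 0.123, beside 0.117 in the flanks. The exon was below its flanks in icSHAPE in vitro and slightly above them in both in vivo profiles. The RPKM of ENST00000489394 was 11.1 in icSHAPE in vitro, 8.12 in icSHAPE in vivo and 19.7 in icLASER in vivo. Reads from models that skip the exon could count in its flanks but not in the exon, and the part of this was not tested. Another exon of this model, of 84 nt (chrX:23783800-23783883), had icSHAPE means of 0.0620 and 0.136 beside 0.281 and 0.181 in its flanks. It directly precedes the cassette exon in this model. Each exon therefore supplied a flank of the other, and the comparisons are not independent.

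Over the whole transcript, icSHAPE was higher in vivo in 5 of 6 genes, where 90.0% of 11499 transcripts were higher and 10.0% lower, and the median of all transcripts was 0.0243. The exception was OAZ1 ENST00000592727, with 0.174 in vitro and 0.162 in vivo, lower than all but 3.63% of transcripts. Its coding model ENST00000602676 was at 0.159 and 0.165. The other 5 genes were higher by 0.0186 (SRM) to 0.0380 (AZIN1). With icLASER 5 of 6 genes were higher, where 67.0% of 13593 transcripts were and 33.0% were lower, and AZIN1 was the exception at 0.181 in vitro and 0.162 in vivo, lower than all but 7.94% of transcripts.

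The scaling of the profiles decided the icSHAPE direction. The mean over all scored nucleotides was 0.141 in icSHAPE in vitro and 0.167 in vivo, and when every profile was scaled to a common mean only 2 of the 6 genes were higher in vivo. The icLASER means of 0.152 and 0.151 left its count at 5 of 6.

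Scores of the same position were compared between conditions. Pearson's r between in vitro and in vivo icSHAPE scores was 0.772 over 690 positions of OAZ1, 0.657 in ODC1, 0.594 in SRM, 0.496 in SMS, 0.479 in SAT1 and 0.362 in AZIN1. For icLASER r was 0.709 in OAZ1, 0.678 in SRM, 0.625 in ODC1, 0.560 in SMS, 0.345 in OAZ2 and 0.319 in AZIN1. For both reagents r was highest in OAZ1, the most abundant transcript, and lowest in those with the lowest RPKM, AZIN1 and OAZ2, and the part of depth in it was not tested.

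Between the reagents r was lower. In vivo it was 0.438 in SRM, 0.401 in ODC1, 0.381 in OAZ1, 0.372 in SAT1, 0.237 in SMS and 0.152 in AZIN1. In vitro it was 0.467 in SMS, 0.443 in OAZ1, 0.42 in ODC1, 0.349 in SRM and 0.243 in AZIN1. The value of SMS differed most between the conditions. Nucleotides with a score of at least 0.5 with both reagents made up 4.06% of OAZ1 in vivo, 2.83 times the product of the separate shares, and 3.01% of AZIN1, 1.78 times. These positions share a transcript, libraries and base composition, and the values are a description.

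Of 19 other genes of polyamine and methionine metabolism, 8 were scored and 6 of them in all 4 profiles. Whole-transcript icSHAPE was higher in vivo in 5 of these 6, near the 90.0% of all transcripts, with a median of 0.0287 beside 0.0243. For icLASER a further gene, scored in 3 profiles that include both of icLASER, was counted too. With it, icLASER was higher in 4 genes and lower in 3, where 67.0% of all transcripts were higher and 33.0% lower. The median was 0.00423 beside 0.00781. ARG2, an arginase that supplies ornithine, was higher in vivo by 0.0454 with icSHAPE and 0.0346 with icLASER. EIF5A, the protein that carries the spermidine-derived hypusine, was higher by 0.0344 and 0.0145. MAT2A, which makes S-adenosylmethionine, differed by 0.0136 and −0.0042, and AHCY, which clears its methylation product, by −0.00775 and 0.00423. DHPS, which begins hypusine formation, was higher by 0.0297 and 0.0326, and APIP, of the methionine salvage pathway, differed by 0.0276 and −0.000399.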

How the data were processed

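K562 RNA probed with icSHAPE and icLASER was described in 4 profiles. The authors aligned reads to the Ensembl release 88 transcriptome (GRCh38; Trimmomatic and Bowtie2 are named in the submitters' processing notes), ran the icSHAPE pipeline and pooled replicates. The deposited RPKM is normalized for transcript length and library size, with no value below 5. The deposited score compares reagent and control at each nucleotide and is scaled from 0 to 1 by the authors. Read counts behind a score are unknown, so no interval is given.

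From these files, gene names, sequences and regions were taken from GENCODE release 44 where identifier and length matched (15325 of 20111 named transcripts). Coding models of other length were placed by correlating their scores with those of another transcript of the gene, a step chosen after the data were seen. For SRM the best placement had r = 0.767 and the next best 0.216. Windows were set among all overlapping windows of equal length in the transcript with at least 0.8 of positions scored. Regions needed 30 nt and transcripts 100 nt scored in both profiles. A changed nucleotide differed by 0.3 and a reactive one reached 0.5. Python 3.11.15, numpy 2.4.6, scipy 1.17.1 and matplotlib 3.10.9 were used, and the window, placement and helix searches were tested on simulated data.

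The genes named are the members, each by its transcript of highest mean RPKM, and the genes of a fixed list of polyamine metabolism scored in all profiles. Where sequence or coding position was needed, the highest transcript of equal length was used. Members and lists were chosen with earlier results of these data known. No test was possible with 1 pooled profile per condition. Alternatives covered the assignment of scores, mean or median, scaling, transcript, window length and thresholds.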

Additional observations from a re-analysis of the deposited data

How the results depend on the processing

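No paired analysis was possible because each profile pools the replicates of a group, and for the same reason no replicate could be left out. Of 71 alternatives, 56 were classed as unchanged and 15 as moved. A window difference or a reagent comparison was unchanged where it shifted by less than the SD of the windows or genes. A count was unchanged where its ratio to the main count stayed within a fixed limit. A change of sign within the SD was classed as unchanged. For example, the icSHAPE difference of the OAZ1 frameshift window went from −0.00523 to 0.04 in ENST00000581150. The icLASER difference over the OAZ1 pseudoknot stayed below 0 under all its alternatives, from −0.241 with A and G alone to −0.085 with the median. For OAZ1 icSHAPE over the same 60 nt the difference became −0.0664 with profiles scaled to a common mean and 0.0331 in ENST00000602676. In the OAZ1 frameshift window A and G alone gave 0.0457 for icSHAPE and −0.202 for icLASER. The coding models that skip 1 base, an alternative chosen after seeing the data, gave 0.105 (ENST00000602676) and 0.0869 (ENST00000582888) for icSHAPE there. With the median in place of the mean, the genes higher in vivo numbered 1 in the 5' UTR and 1 over the transcript for icSHAPE, and 0 and 2 for icLASER, because the medians of 5 of 6, 5 of 6, 5 of 5 and 4 of 6 genes were equal in both conditions. Scaling to a common mean left 2 genes higher over the transcript in icSHAPE. The median ratio of reactive overlap between reagents was 3.15 in vitro and 2.91 in vivo, moved to 2.32 and 2.00 at a reactive level of 0.3 and to 4.94 and 3.98 at 0.8. The alternatives for AMD1 were not run because no row matched it. OAZ2 and AZIN1 lie near 5 RPKM. Their scores were exactly 0 or 1 at 52.1% to 75.4% of nucleotides, where the share over all transcripts was 51.8% to 67.5%. The depth behind a single score is unknown.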
